A study of Mus musculus with 5 samples.

Results

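Klhl30, Asb2, Ak1 and Myo3a are 4 genes of the muscle type that were picked for their change after Mef2d was targeted in mouse mammary epithelial cells. They are 4 of the 12934 genes listed in the deposited counts, and all 4 passed the filter on low counts that left 12483 genes for testing. They were selected on the counts of all 5 libraries in the contrast that is described here (sgMef2d against sgControl), so their differences are given as a description, with standard errors and counting intervals and with no test. Klhl30, Asb2 and Myo3a were lower and Ak1 was higher in the sgMef2d cells.

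The RNA came from EpH4 cells, an immortalized epithelial line from the mammary gland of a BALB/c mouse. All cells of both groups carried Cas9, delivered by lentivirus and selected with blasticidin, and an sgRNA vector selected with puromycin. The methods speak of stable clones at both selections, without the number of clones behind a library. The control group (sgControl, 3 libraries) carried a control sgRNA and the other group (sgMef2d, 2 libraries) an sgRNA against Mef2d, the gene of a MEF2 transcription factor. More than 1 sgRNA against Mef2d was used in the study, and the sources used here do not say which of them each sgMef2d library carried, nor whether the libraries came from separate cultures, so the spread between libraries may be technical. The libraries held between 13601145 and 20498563 counts. CPM values are counts scaled to a fixed library total, and by the raw totals a count of 3 corresponded to between 0.146 and 0.221 CPM.

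MEF2 proteins are MADS-box transcription factors that bind A/T-rich sites and, together with myogenic bHLH factors such as MyoD, switch on the genes of contraction and energy supply during muscle differentiation. The 4 genes have different roles. Klhl30 and Asb2 are adaptors that bring proteins to cullin ubiquitin ligases, Ak1 is a soluble kinase that balances ATP, ADP and AMP, and Myo3a is a motor on actin. Myo3a is best known from the actin-filled protrusions of hair cells in the inner ear and from photoreceptors rather than from the sarcomere, so the name muscle type covers it loosely.

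The promoter windows of the genes are shown because the targeted factor binds DNA. RefSeq (GRCm38.p6) gave 7 windows of 300 bases for 3 of the 4 genes, each from 250 bases before to 50 bases after an annotated start, 2 of them for Asb2, 4 for Ak1 and 1 for Myo3a. The windows were searched on both strands for the MEF2 consensus, for the CArG box, which is the site of the related MADS-box factor SRF, and for the E-box CANNTG of the bHLH factors, all of which read the same on either strand. The E-box was the commonest of these in the 32851 windows of all genes, present in 72.3% of them, while 3.19% held the MEF2 consensus and 1.63% the CArG box. For 1 window of each gene the first 280 bases are given 5′ to 3′ on the gene's strand, with a MEF2 consensus or CArG match in capitals. The coordinates are chr12:103355972-103356251 (minus strand) for Asb2, chr2:32625187-32625466 (plus strand) for Ak1 and chr2:22227253-22227532 (plus strand) for Myo3a.
Asb2: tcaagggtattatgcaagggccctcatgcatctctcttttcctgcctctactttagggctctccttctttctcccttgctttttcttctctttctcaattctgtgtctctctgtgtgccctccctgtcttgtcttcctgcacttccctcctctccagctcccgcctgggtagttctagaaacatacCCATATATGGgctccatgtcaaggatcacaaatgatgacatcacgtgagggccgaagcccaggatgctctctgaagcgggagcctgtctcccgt
Ak1: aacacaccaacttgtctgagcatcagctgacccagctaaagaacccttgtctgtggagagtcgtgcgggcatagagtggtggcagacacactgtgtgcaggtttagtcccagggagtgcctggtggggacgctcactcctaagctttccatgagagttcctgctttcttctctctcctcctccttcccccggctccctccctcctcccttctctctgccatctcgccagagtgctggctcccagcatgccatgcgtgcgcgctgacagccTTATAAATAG
Myo3a: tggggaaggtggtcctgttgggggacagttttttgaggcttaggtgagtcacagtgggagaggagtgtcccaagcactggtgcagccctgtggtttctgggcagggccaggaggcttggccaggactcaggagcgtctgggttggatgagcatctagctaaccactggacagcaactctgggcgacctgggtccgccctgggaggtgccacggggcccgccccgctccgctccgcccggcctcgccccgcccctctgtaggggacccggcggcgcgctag
The Asb2 window held a CArG box that begins 64 bases before the start, as well as 2 E-boxes. The Ak1 window held a MEF2 consensus match that begins at base 21 of the transcript, as well as 1 E-box. None of the 3 motifs was found in the Myo3a window, in which 66.3% of the bases were G or C. The other Asb2 window and the other 3 Ak1 windows held between 1 and 3 E-boxes each and neither of the other motifs. A match describes these letters only, and binding was not measured. The counts are summed over each gene, so they do not tell which of the annotated starts of Asb2 or Ak1 was in use.

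The targeted gene was measured first. Mef2d stood at 64.3, 76.9 and 71.5 CPM in sgControl replicates 1, 2 and 3 and at 64.2 and 65.8 CPM in sgMef2d replicates 1 and 2. The groups overlapped. The log2FC (log2 fold change of sgMef2d over sgControl) was -0.12 and its adjusted p 0.400 (edgeR's quasi-likelihood test, Benjamini-Hochberg adjusted over all genes tested, as throughout). Over the 14 alternative settings the adjusted p of Mef2d ran from 0.00550, without sgControl replicate 1, to 0.770. A cut by Cas9 that shifts the reading frame need not lower the transcript, so these counts do not check the labels.

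Over all 12483 genes tested, 992 (7.95%) passed an adjusted p below 0.05, with 458 (3.67%) higher and 534 (4.28%) lower in sgMef2d, and for 5132 genes (41.1%) the groups did not overlap, with both sgMef2d libraries above or both below every control. The log2FC had a median of 0.0031 over all genes. The library sgControl replicate 1 stood apart from the other controls, since without it 3639 of 12377 genes (29.4%) passed the threshold, 1804 (14.6%) higher and 1835 (14.8%) lower. Counts of list genes and of neighbouring genes past the threshold are therefore also given without it, and are to be read against that 29.4% rather than against 7.95%.

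EpH4 cells were checked for muscle cells among them. Of 16 defining markers of skeletal muscle, 3 were among the genes listed (Acta1, Mylpf and Tnni2), while Myod1, Myog, Myf5, Pax7, Ckm, Des and the fast myosin heavy chains were not. The summed level of the 3 was between 11.4 and 13.5 CPM in sgControl and between 12.5 and 13.4 CPM in sgMef2d, most of it from Tnni2. Acta1, the skeletal actin, was at 1.80 ± 0.498 CPM (SD, n = 3) in sgControl and at 0.913 ± 0.0424 CPM (SD, n = 2) in sgMef2d, for which the adjusted p was 0.137 in all libraries and 0.0149 without sgControl replicate 1. Of 12 epithelial markers 11 were listed, with summed levels between 4310 and 4496 CPM in sgControl and between 4106 and 4275 CPM in sgMef2d. Of these 11 genes 2 passed the threshold (18.2%, beside 7.95% of all genes), the claudin gene Cldn4 higher (log2FC 0.26, adjusted p 0.0407) and the keratin gene Krt18 lower (log2FC -0.26, adjusted p 0.0207), and for 7 the groups did not overlap (63.6%, beside 41.1%). Both calls were lost without sgControl replicate 2 and without either of the sgMef2d replicates. That of Cldn4 was also lost without sgControl replicate 3 and with the replicate number as a block. Of the 11 genes, 6 passed without sgControl replicate 1 (beside 29.4%).

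Markers of myoepithelial cells, the contractile basal cells of the mammary gland, moved with the groups. Of 10 such markers 7 were listed and 5 passed the threshold (71.4%, beside 7.95% of all genes), and 6 passed without sgControl replicate 1 (beside 29.4%). Krt5, Krt14 and Trp63, basal cell genes, were higher, and Acta2 and Actg2, smooth muscle actins, were lower in sgMef2d, though Actg2 kept its call in 6 of 14 alternatives only (adjusted p up to 0.293) and Acta2 lost its call without sgMef2d replicate 1 (adjusted p 0.0598). The summed level was between 493 and 502 CPM in sgControl and between 955 and 1012 CPM in sgMef2d, most of it from Krt14 alone (439.2 and 901.9 CPM on average), while 4 of the 7 markers had a negative log2FC. Krt5 was at 0 counts in sgControl replicate 2 and at 15.3 and 14.2 CPM in the sgMef2d libraries. Of 10 fibroblast markers 7 were listed and 4 passed (57.1%, beside 7.95% of all genes), 3 higher and 1 lower, while without sgControl replicate 1 all 7 passed (beside 29.4%), 4 higher and 3 lower. They had summed levels of 713 to 882 and 806 to 841 CPM, and of 10 blood and endothelial markers 2 were listed, with sums of 0.851 to 1.47 and 1.77 to 2.29 CPM. The part of such shifts in the levels of the 4 genes was not tested, and in bulk RNA fewer cells that express a gene cannot be told apart from less of its RNA per cell.

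Klhl30 is a BTB-kelch protein that is most abundant in skeletal and cardiac muscle. Such proteins hold CUL3 with the BTB domain and the substrate with the kelch repeats. The gene (ENSMUSG00000026308.8) lies on the plus strand at chr1:91351016-91362416 (GRCm38), with 1 annotated transcript of 8 exons and 3089 bases. Its counts were 720, 494 and 470 in sgControl and 124 and 98 in sgMef2d, which correspond to 35.1, 35.0 and 34.4 CPM against 7.30 and 6.60 CPM. Every sgMef2d library lay below every sgControl library, by many times the spread within either group. The mean was 34.9 ± 0.361 CPM (SD, n = 3) in sgControl and 6.95 ± 0.494 CPM (SD, n = 2) in sgMef2d, and the log2FC was -2.32 (standard error 0.0999). On summed counts Klhl30 was 5.03-fold lower, with an exact 95% counting interval from 4.37 to 5.81. Without sgControl replicate 1 its log2FC was again -2.32. It was the best measured of the 3 genes that were lower, and it ranked 8 from the lowest log2FC of all genes tested.

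Asb2 is an ankyrin repeat protein with a SOCS box, which joins elongins B and C and CUL5 to form a ubiquitin ligase for filamins, and which is made in striated muscle and in blood cells. The gene (ENSMUSG00000021200.14) lies on the minus strand at chr12:103321142-103356001, with 4 annotated transcripts over 11 exons, the longest of 2690 bases. Its counts were 28, 15 and 12 in sgControl and 2 and 1 in sgMef2d. The sgControl libraries stood at 1.37, 1.06 and 0.879 CPM and the sgMef2d libraries at 0.118 and 0.0673 CPM. The groups did not overlap, but Asb2 was a gene of low level in the control cells too, and both sgMef2d libraries were under 3 counts. The mean was 1.10 ± 0.245 CPM (SD, n = 3) in sgControl and 0.0925 ± 0.0356 CPM (SD, n = 2) in sgMef2d. The summed counts, 55 against 3, gave a 12.2-fold lower level with a counting interval from 3.95 to 60.8. That interval covers counting error only, and neither the spread between libraries nor the picking of the gene for its change. The log2FC was -3.49 with a standard error of 0.613, and -3.26 without sgControl replicate 1.

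Ak1 is the cytosolic adenylate kinase, abundant in skeletal muscle, brain and red cells, which turns 2 ADP into ATP and AMP and so relays high-energy phosphate within the cell. The gene (ENSMUSG00000026817.14) lies on the plus strand at chr2:32621758-32635058, with 6 annotated transcripts over 8 exons, the longest of 2085 bases. Its counts were 284, 200 and 184 in sgControl and 525 and 450 in sgMef2d. These correspond to 13.8, 14.2 and 13.5 CPM in sgControl and to 30.9 and 30.3 CPM in sgMef2d. Each sgMef2d library lay above all 3 sgControl libraries, and the libraries within a group were close to each other. Ak1 thus moved the other way from Klhl30, Asb2 and Myo3a. The mean was 13.8 ± 0.349 CPM (SD, n = 3) in sgControl and 30.6 ± 0.420 CPM (SD, n = 2) in sgMef2d, and the log2FC was 1.14 (standard error 0.0863), also without sgControl replicate 1. The ratio of summed counts was 2.20, with a counting interval from 1.99 to 2.43, and Ak1 ranked 167 from the highest log2FC.

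Myo3a is a class III myosin with a kinase domain in front of its motor. The gene (ENSMUSG00000025716.14) lies on the plus strand at chr2:22227503-22618252, with 6 annotated transcripts over 34 exons, the longest of 5082 bases. It is on the same chromosome as Ak1. Its counts were 25, 12 and 8 in sgControl and 2 and 0 in sgMef2d, and the levels were 1.22, 0.851 and 0.586 CPM against 0.118 and 0 CPM. The sgMef2d libraries lay below the 3 sgControl libraries, which were themselves spread widely. The mean was 0.885 ± 0.318 CPM (SD, n = 3) in sgControl and 0.0588 ± 0.0832 CPM (SD, n = 2) in sgMef2d. The summed counts of 45 and 2 gave a 14.9-fold lower level, with a counting interval from 3.90 to 127. The log2FC was -3.73 with a standard error of 0.836, of which the precise value rests on a few counts. Without sgControl replicate 1 Myo3a no longer passed the expression filter, and the 2 controls that are left held 12 and 8 counts.

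**Figure D1:**
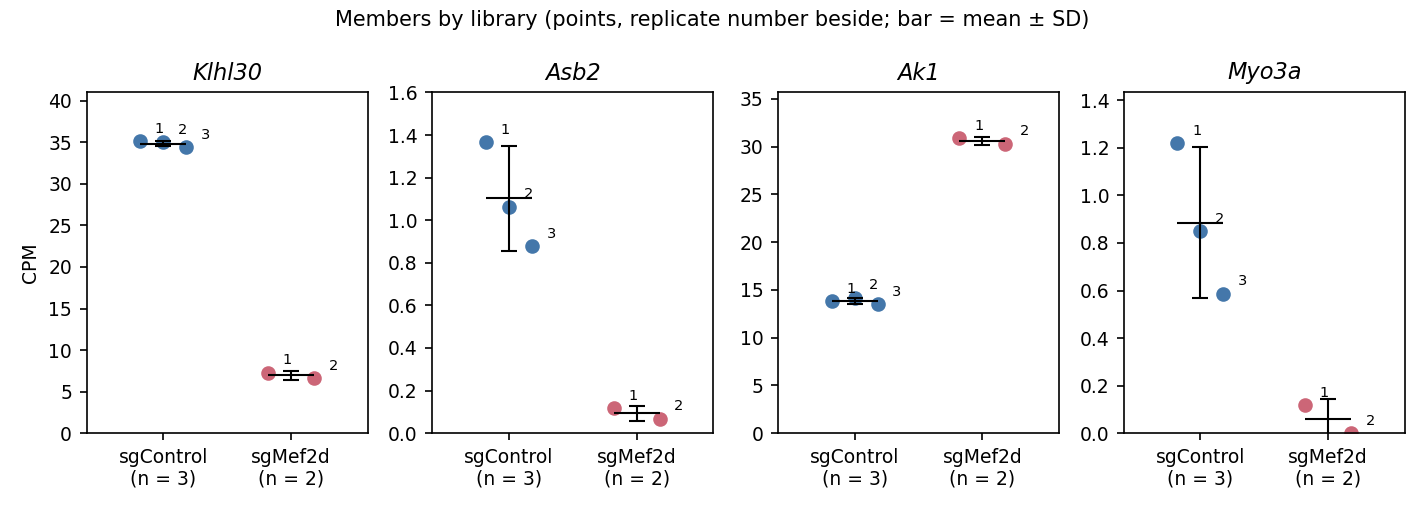
CPM (vertical axes, each from 0) of the 4 genes in each library, with the replicate number beside each point and bars for the mean ± SD of 3 sgControl and 2 sgMef2d libraries. Klhl30 sits near 35 CPM in sgControl and near 7 CPM in sgMef2d, Ak1 rises from about 14 to 31 CPM, and Asb2 and Myo3a are at about 1 CPM or less throughout.

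None of the 4 genes shared a run of 50 bases with the transcripts of another gene, out of 3040, 3487, 2630 and 7987 such runs in Klhl30, Asb2, Ak1 and Myo3a. An antisense gene, Gm15523, overlaps the span of Asb2, and 4 pseudogenes lie within that of Myo3a. These share 0 exon bases with the 2 genes and are not among the genes listed. The libraries mark strand, but the strand setting of the counting is not given in the sources used here.

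The genes differed in level as well as in direction. Per kilobase of the longest transcript, the mean level of Klhl30 was 11.3 ± 0.117 RPKM (SD, n = 3) in sgControl and 2.25 ± 0.160 RPKM (SD, n = 2) in sgMef2d. Ak1 stood at 6.64 ± 0.167 RPKM in sgControl and at 14.7 ± 0.201 RPKM in sgMef2d. Asb2 went from 0.410 to 0.0344 RPKM and Myo3a from 0.174 to 0.0116 RPKM. The order by mean RPKM was therefore Klhl30, Ak1, Asb2 and Myo3a in the control cells, and in the sgMef2d cells Ak1 and Klhl30 changed places. Neighbours in this order did not overlap between libraries in sgControl, and in sgMef2d only Asb2 and Myo3a were too low to be ordered, with 3 and 2 counts in all. Among all genes listed, the RPKM of Klhl30 went from percentile 57.7 to 25.9 and that of Ak1 from percentile 44.7 to 64.3. Asb2 went from percentile 8.75 to 0.224 and Myo3a from percentile 3.05 to 0.0309.

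**Figure D2:**
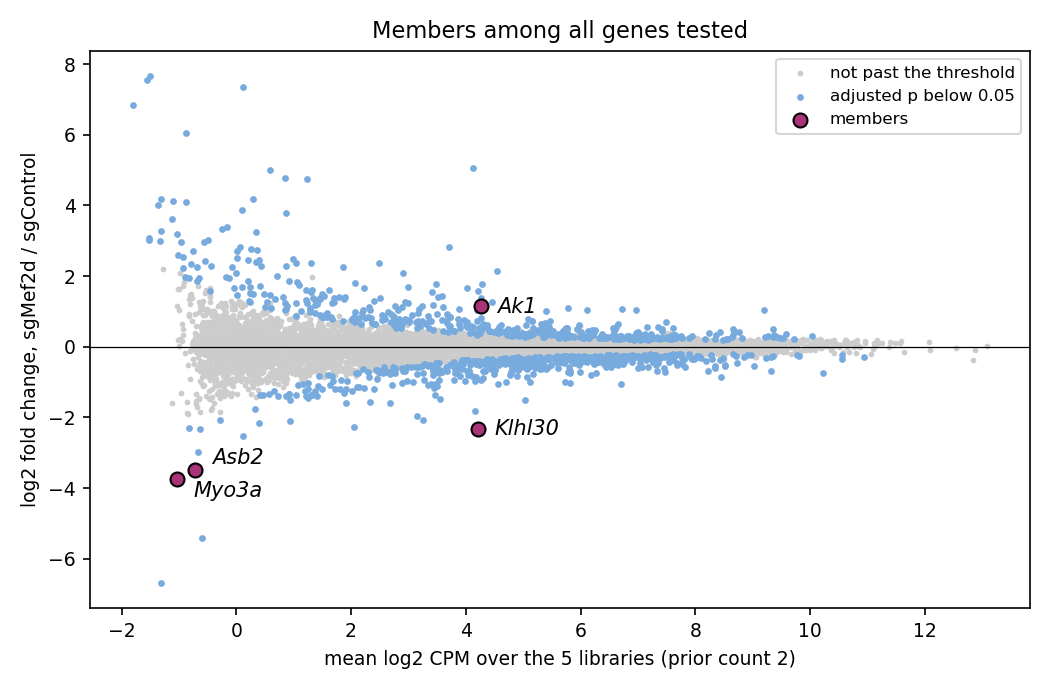
Log2 fold change (sgMef2d over sgControl, vertical axis) against the mean log2 CPM of the 5 libraries (horizontal axis) for the 12483 genes tested, with genes past an adjusted p of 0.05 in blue and the 4 genes as large points. Ak1 and Klhl30 lie at a middle level of expression at 1.14 and -2.32, while Asb2 and Myo3a lie at the low end at -3.49 and -3.73.

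The families of the 4 genes were then compared in the same libraries, each without the picked gene itself, with levels given as the mean ± SD of 3 sgControl and 2 sgMef2d libraries. Of 50 names of kelch-like proteins and CUL3 ligase partners, 31 were listed and tested, and 2 of them (6.45%, beside 7.95% of all genes) passed the threshold, both lower. These were Klhl24, at 20.0 ± 2.57 CPM in sgControl and 12.4 ± 0.0607 CPM in sgMef2d (log2FC -0.68, SE 0.124, adjusted p 0.00657), and Klhl5, at 50.4, 50.1 and 49.6 CPM in sgControl and 40.1 and 39.8 CPM in sgMef2d (log2FC -0.32, adjusted p 0.0140). The call of Klhl24 was kept in 12 and that of Klhl5 in 11 of 14 alternatives, and both were lost without sgMef2d replicate 1 and without sgMef2d replicate 2 (adjusted p up to 0.0848 and 0.183), that of Klhl5 also without sgControl replicate 2. KLHL24 is known for the turnover of keratin 14 in the skin. The partners that any kelch-like adaptor needs did not pass, at -0.02 on the log2 scale for Cul3 (adjusted p 0.895) and at 0.21 for the RING protein gene Rbx1 (adjusted p 0.108). The median log2FC of the list was -0.02, and for 9 of the 31 genes (29.0%, beside 41.1% of all genes) the groups did not overlap. Klhl30 took 1.95% of the summed RPKM of its family in sgControl, rank 12 of 32, and 0.411% in sgMef2d, rank 23 of 32. When sgControl replicate 1 was left out, 6 of the 31 passed (beside 29.4% of all genes), 1 higher and 5 lower, and Rbx1 was among them (adjusted p 1.61e-06).

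Asb2 was set beside its own family next. Of 24 names of ASB proteins, CUL5 ligase partners and filamins, 13 were listed and 0 passed by edgeR's test, with 1 at an unadjusted p below 0.05, against 23.2% of all genes tested. DESeq2 and limma-voom also called 0, with 2 and 1 at an unadjusted p below 0.05, against 16.7% and 22.9% of all genes. The differences of the ligase partners on the log2 scale were 0.03 for Cul5 (adjusted p 0.793), 0.11 for its RING protein gene Rnf7 (adjusted p 0.543), 0.04 for Elob (adjusted p 0.817) and 0.10 for Eloc (adjusted p 0.530). Flna, a filamin that cross-links actin and that ASB2 marks for degradation, was at -0.22 on this scale (adjusted p 0.141), and Flnc was not listed. The median of the list was 0.04, and for 3 of 13 genes (23.1%, beside 41.1% of all genes) the groups did not overlap. With only the other 2 controls, 5 of the 13 passed (beside 29.4%), 3 higher (Rnf7, Elob and Eloc) and 2 lower (Flna among them). Asb2 ranked 13 of 14 by RPKM in sgControl and 14 of 14 in sgMef2d.

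Ak1 was compared with the other adenylate kinases, the creatine kinases and the genes of AMP handling. Of 25 names 15 were listed and 1 (6.67%, beside 7.95% of all genes) passed the threshold. It was Ak3, the GTP:AMP kinase of the mitochondrial matrix, which was lower, at 20.0 ± 2.28 CPM in sgControl and 12.3 ± 0.861 CPM in sgMef2d (log2FC -0.70, SE 0.120, adjusted p 0.00438), a call kept in 13 of 14 alternatives and lost without sgMef2d replicate 1 (adjusted p 0.0880). Ak4, also of the matrix, was at -0.03 (adjusted p 0.848) on the log2 scale, and the creatine kinase gene Ckb was not listed. The median of the list was 0.0029, and for 5 of 15 genes (33.3%, beside 41.1% of all genes) the groups did not overlap. Ak1 rose from 1.85% of the summed RPKM of the list, rank 12 of 16, to 3.92%, rank 8 of 16. In sgControl the RPKM of Ak3 was 7.12 and that of Ak1 6.64, so these began at like levels, while Ak4 stood at 13.5. With sgControl replicate 1 set aside, 3 of the 15 passed (beside 29.4%), 2 higher and 1 lower, with Ak3 the lower one.

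Of 26 names of unconventional myosins and class III myosin partners, 15 were listed beside Myo3a. Among the 15, 1 (6.67%, beside 7.95% of all genes) passed the threshold, lower in sgMef2d. This call was lost without either of the sgMef2d replicates. Morn4, whose protein binds the tail of class III myosins, was at counts of 79, 45 and 45 in sgControl and 97 and 75 in sgMef2d, with means of 3.45 ± 0.355 and 5.38 ± 0.465 CPM. Its groups did not overlap, and its log2FC of 0.63 missed the threshold in all libraries (adjusted p 0.0539) and passed it without sgControl replicate 1 (adjusted p 0.00728). The paralog Myo3b and the cargo gene Espn were not listed. The median of the list was -0.08, and the groups did not overlap for 6 of 15 genes (40.0%, beside 41.1% of all genes). In the fit that left out sgControl replicate 1, 10 of the 15 passed (beside 29.4%), 2 higher and 8 lower. Myo3a had the lowest RPKM of its list in both groups.

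**Figure D3:**
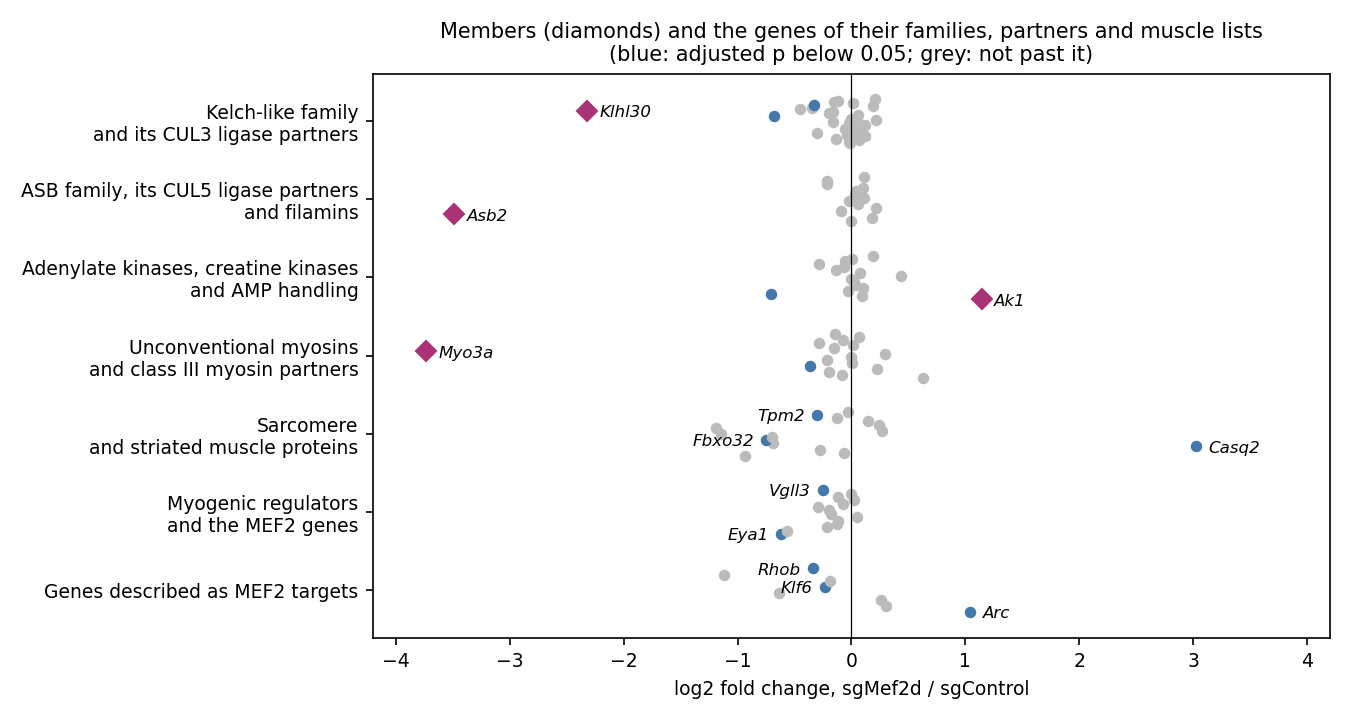
Log2 fold change (horizontal axis) of the 4 genes (diamonds) and of each tested gene of the 7 lists (points, 1 row for a list), blue where the adjusted p was below 0.05 (named in the last 3 rows). The points of the 4 family lists lie between about -0.7 and 0.7, the diamonds lie outside them, and Casq2 stands far to the right in the sarcomere row.

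**Figure D4:**
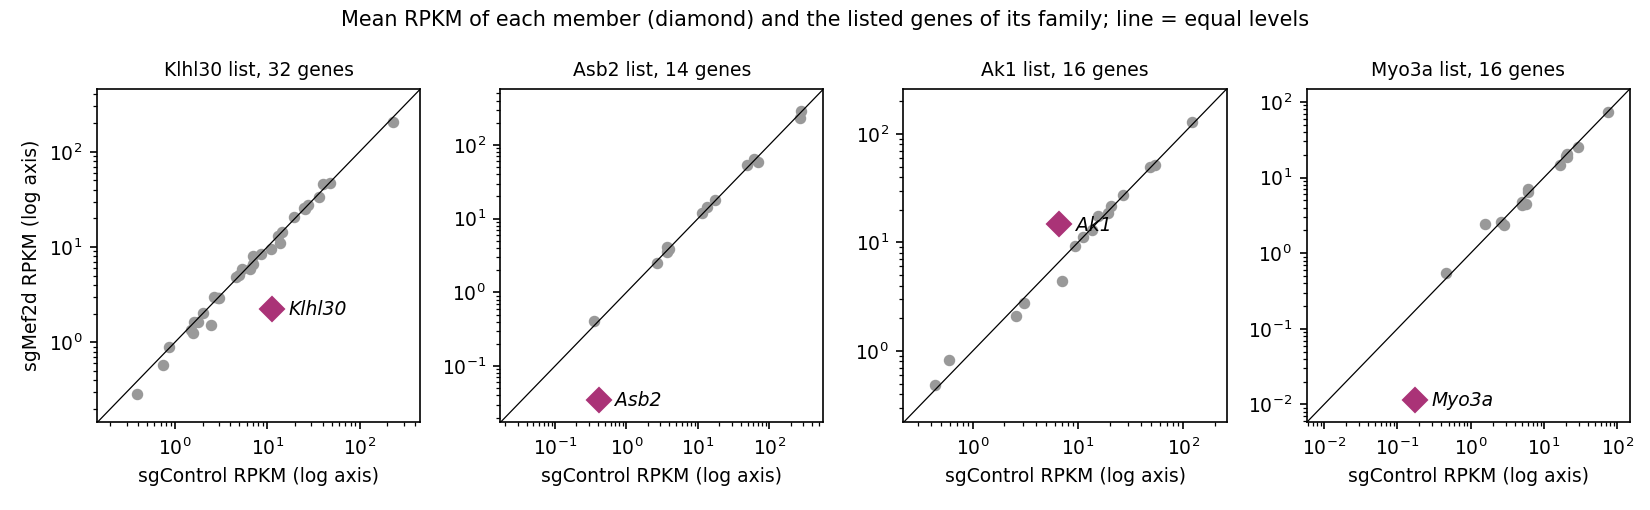
Mean RPKM in sgMef2d against that in sgControl (both axes on a log scale) for each of the 4 genes (diamond) and the listed genes of its family (points), with a line of equal levels. Klhl30, Asb2 and Myo3a lie below the line and Ak1 above it.

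Genes of the sarcomere and of striated muscle were few in these cells. Of 68 names 18 were listed and 15 tested, and 3 passed the threshold, 1 higher and 2 lower (20.0%, beside 7.95% of all genes). Casq2, the calcium-binding protein of the sarcoplasmic reticulum, was higher, with counts of 2, 4 and 5 in sgControl and 38 and 23 in sgMef2d (log2FC 3.02, SE 0.466, adjusted p 0.00254). Tpm2, a tropomyosin that smooth muscle and other cells use too, fell from 172.7 ± 4.09 to 140.5 ± 1.16 CPM (log2FC -0.30, adjusted p 0.00815), and Fbxo32, a ubiquitin ligase of muscle atrophy, from 7.13 ± 1.13 to 4.21 ± 0.0452 CPM (log2FC -0.75, adjusted p 0.0258). The calls of Casq2, Tpm2 and Fbxo32 were kept in 13, 12 and 11 of 14 alternatives, with adjusted p up to 0.0713, 0.145 and 0.194. Each was lost without sgMef2d replicate 1, Tpm2 and Fbxo32 also without sgMef2d replicate 2, and Fbxo32 also without sgControl replicate 3. The median of the 15 genes was -0.27, and for 10 of them (66.7%, beside 41.1% of all genes) the groups did not overlap. Leaving out sgControl replicate 1, 6 of the 15 passed (beside 29.4%), 1 higher and 5 lower.

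Among 24 names of myogenic regulators and MEF2 genes, 14 were listed and 2 passed the threshold (14.3%, beside 7.95% of all genes), both lower. Eya1, a phosphatase and coactivator of homeobox factors, fell from 40.0 ± 4.48 to 25.9 ± 2.20 CPM (log2FC -0.62, adjusted p 0.00427), a call lost without sgMef2d replicate 2 (adjusted p 0.0902). Vgll3, a cofactor of TEAD factors, fell from 119.7 ± 7.45 to 100.5 ± 2.48 CPM (log2FC -0.25, adjusted p 0.0442), a call that was kept in 8 of 14 alternatives and lost under DESeq2, under limma-voom and without any library other than sgControl replicate 1 (adjusted p up to 0.368). The median of the list was -0.16 and the groups did not overlap for 5 of the 14 genes (35.7%, beside 41.1% of all genes). Once sgControl replicate 1 was left out, 8 of the 14 passed (beside 29.4% of all genes, 14.8% lower), all of them lower, Mef2d included.

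Of 15 names described as MEF2 targets, 8 were listed and 3 passed the threshold (37.5%, beside 7.95% of all genes), 1 higher and 2 lower. Arc, an immediate early gene of neurons, rose from 5.17 ± 0.243 to 10.7 ± 0.806 CPM (log2FC 1.05, adjusted p 8.49e-04). Rhob, a small GTPase gene, fell from 86.5 ± 1.94 to 68.6 ± 0.0885 CPM (log2FC -0.33, adjusted p 0.00668), and Klf6, a zinc finger factor gene, from 169.8 ± 6.12 to 144.7 ± 5.33 CPM (log2FC -0.23, adjusted p 0.0391). The call of Arc was kept in all 14 alternatives, while those of Rhob and Klf6 were lost without either of the sgMef2d replicates (adjusted p up to 0.114 and 0.409), that of Klf6 also without sgControl replicate 2. The groups did not overlap for 7 of the 8 genes (87.5%, beside 41.1% of all genes), in both directions, and the median was -0.21. Setting sgControl replicate 1 aside, 4 of the 8 passed (beside 29.4%), 2 higher and 2 lower. The list is short, and its genes come from neurons, immune cells and muscle.

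The genes next to the 4 genes on the chromosomes mostly had small log2FC values. Of 10 genes tested within 250 kb of Klhl30, 1 passed the threshold (beside 7.95% of all genes). It was Erfe, the gene of the hormone erythroferrone, 4.0 kb away, which fell from 146.9 ± 5.10 to 126.2 ± 3.26 CPM (log2FC -0.22, adjusted p 0.0475). That call was kept in 7 of 14 alternatives. It was lost without any library other than sgControl replicate 1. It was also lost with upper quartile factors, under DESeq2 and with the replicate number as a block. On the other side Scly, 29.9 kb away, was at -0.22 with an adjusted p of 0.155. The 10 genes lay between -0.34 and 0.01 on the log2 scale, beside -2.32 for Klhl30. Without sgControl replicate 1, 2 of the 10 passed (beside 29.4% of all genes), both lower.

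The 4 genes tested within 250 kb of Asb2 had log2FC values between 0.19 and 0.57, and thus of the other sign from Asb2, with adjusted p between 0.103 and 0.592. When sgControl replicate 1 was left out, 2 of these 4 passed (beside 29.4% of all genes), both higher. The nearest of them was Otub2, a deubiquitinase gene 32.7 kb away (0.57, adjusted p 0.208), and on the other side the nearest was Btbd7, 443 kb away (-0.18, adjusted p 0.194). Of 16 genes tested within 250 kb of Ak1, 4 passed without sgControl replicate 1 (beside 29.4%), 3 higher and 1 lower. In all libraries 1 of the 16 passed (beside 7.95%). It was Lcn2, the gene of the iron-binding protein lipocalin 2, 233.5 kb away, which was lower (log2FC -0.64, adjusted p 5.90e-04). The nearest genes of Ak1, St6galnac6 at 0.95 kb and Eng at 11.5 kb, were at 0.26 (adjusted p 0.331) and 0.02 (adjusted p 0.922) on the log2 scale. For Myo3a, Gm13337 at 158 kb was the only gene tested within the window (0.46, adjusted p 0.368), and Pdss1 on the other side, 277 kb away, was at 0.02 (adjusted p 0.923).

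**Figure D5:**
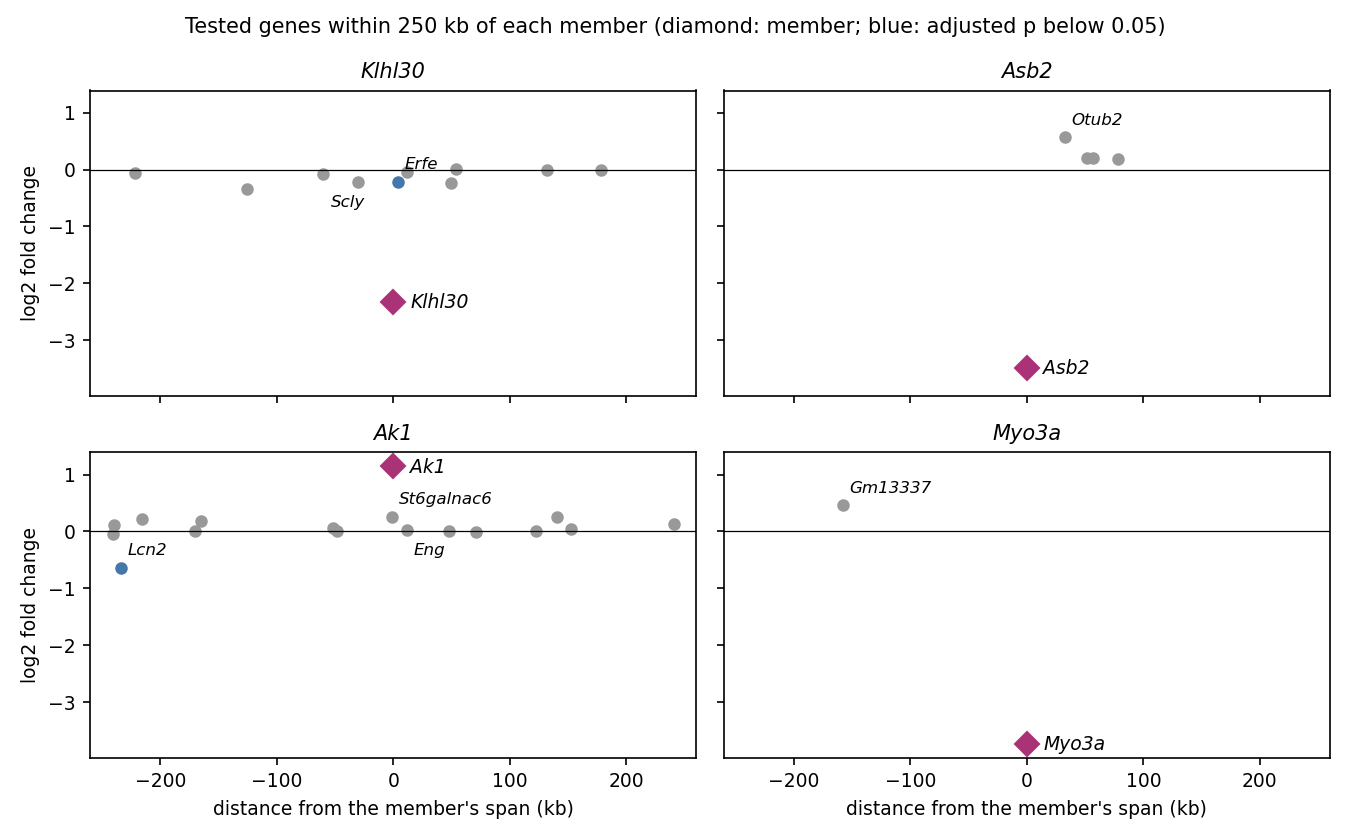
Log2 fold change (vertical axes) of the genes tested within 250 kb of each of the 4 genes against their distance in kb (horizontal axes), with the picked gene as a diamond at 0 and genes past an adjusted p of 0.05 in blue. Erfe near Klhl30 and Lcn2 near Ak1 are the blue points, and both lie below 0.

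The patterns over the 5 libraries were compared between genes as a description, by the Euclidean distance of log2 CPM centred on the mean of the libraries (prior count 2). Among all genes tested, the nearest to Klhl30 was Asb2, at a distance of 0.454, followed by Kctd12b at 0.476 and the melanocortin receptor gene Mc5r at 0.489. Kctd12b went from 15.1 ± 1.75 to 3.85 ± 0.300 CPM and Mc5r from 7.69 ± 0.255 to 1.54 ± 0.653 CPM. For Asb2 the nearest were Klhl30 at 0.454, Myo3a at 0.506 and Mc5r at 0.623. For Myo3a they were Asb2 at 0.506, Nos1 at 0.637 and Mc5r at 0.755. Nos1, the neuronal nitric oxide synthase gene, which skeletal muscle also uses, was at counts of 38, 15 and 9 in sgControl and 5 and 0 in sgMef2d.

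The genes nearest to Ak1 were closer to it than those of the other genes. They were Krt14 at 0.150, the metalloprotease gene Adamts7 at 0.171 and Apol9a at 0.186. Krt14, the keratin of basal epithelial cells, went from 439.2 ± 3.50 to 901.9 ± 38.6 CPM, Adamts7 from 5.30 ± 0.466 to 12.7 ± 0.0367 CPM and Apol9a from 13.5 ± 0.953 to 28.1 ± 1.07 CPM. These distances rest on 5 libraries. For Asb2 and Myo3a they rest on few counts, whose differences the prior count makes smaller. All 4 genes, Ak1 included, were picked on these same values. Nothing is therefore read from the distances, nor from Klhl30, Asb2 and Myo3a being near each other.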

How the data were processed

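Poly(A) RNA of EpH4 cells with Cas9 was sequenced from libraries that mark the strand. Reads were checked by the authors with FASTQC and RSeQC and aligned with STAR2 to GRCm38. Genes of low level were removed, and the authors deposited raw, unnormalized counts per gene. The annotation release behind the counts is given as a version 22 that differs from the mouse numbering, and all 12934 identifiers matched GENCODE M21 (12811 with the same version). No listed gene was under 11 counts in all libraries, and the totals therefore cover listed genes only.

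The deposited counts were scaled by TMM factors, filtered by group (12483 genes kept) and tested with the quasi-likelihood method of edgeR 4.0.16 (R 4.3.3, bias-adjusted rather than legacy), with Benjamini-Hochberg adjustment and a threshold of 0.05. The biological coefficient of variation was 0.0607. CPM used the library totals of the genes kept, multiplied by the TMM factors, and RPKM also the longest annotated transcript. Intervals of count ratios are exact and cover counting error only, since PCR copies were not identified. The test script was checked on simulated counts.

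The 4 genes and the 12 lists were chosen with earlier results of these data known. The genes named are the 4 genes, Mef2d, the genes of 7 lists past the threshold (at most the 6 with the smallest p for each), the direct ligase, filamin and myosin partners and closest relatives, the nearest tested genes on the chromosome, and for each gene the 3 with the nearest pattern. The markers, Erfe, Lcn2 and single genes without sgControl replicate 1 were named after their values were seen. Values of some single genes of these lists are not reported here. Of 274 names in the lists, 273 were found in the annotation. Alternatives were RLE factors, upper quartile factors, library totals, no filter, a mean count of at least 10, the legacy quasi-likelihood test, DESeq2 1.42.0, limma-voom (limma 3.58.1), a replicate block, merged exon lengths and leaving out each library.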

Additional observations from a re-analysis of the deposited data

How the results depend on the processing

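The direction of the log2 fold changes of Klhl30, Asb2, Ak1 and Myo3a was kept under every alternative that gave a value. Leaving out each library in turn gave log2 fold changes from -2.40 to -2.26 for Klhl30, from -3.93 to -3.19 for Asb2, from 1.13 to 1.16 for Ak1 and from -6.89 to -2.91 for Myo3a. The value of -6.89 is set against a single sgMef2d library at 0 counts and is no bound. Myo3a did not pass the expression filter without sgControl replicate 1 or 2, nor a mean count of at least 10, and has no value there. Without any 1 sgMef2d library the group has a single library, which is assumed to vary like the controls.

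The number of genes past the threshold when each library was left out ranged from 234 (without sgMef2d replicate 2) to 3639 (without sgControl replicate 1), with 603 without sgControl replicate 2, 812 without sgControl replicate 3 and 238 without sgMef2d replicate 1. With each library left out in turn the count ranged from 0 to 6 for the kelch-like list, 0 to 5 for the ASB list, 0 to 3 for the adenylate kinase list, 0 to 10 for the myosin list, 0 to 6 for the sarcomere list, 0 to 8 for the myogenic list and 1 to 4 for the MEF2 target list. Among these fits the highest count of each of the 7 lists came without sgControl replicate 1. DESeq2 and limma-voom each called 1 gene of the myogenic list. The cause of these shifts was not tested.

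The sources used here do not say whether the replicate numbers pair the libraries. Same-numbered libraries had correlations of 0.0113 and -0.000916 in their deviations from the group means. With 2 sgMef2d libraries the deviations in that group mirror each other, so these values cannot decide whether there is a pairing. With a replicate block 1254 genes passed the threshold, with 3 of the myosin list and 6 of the MEF2 target list, and the other family and muscle lists stayed within 1.5 times their counts. The marker lists were not counted under the block, where Cldn4 lost its call. With merged exon lengths the level of Asb2 in sgControl was 0.311 RPKM, that of Myo3a 0.111 RPKM, and that of Ak1 5.34 RPKM in sgControl and 11.8 RPKM in sgMef2d. Depth limits Asb2 and Myo3a, whose sgMef2d libraries held 0 to 2 counts.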
